A study of Mus musculus with 12 samples.

Results

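Epididymal white adipose tissue (eWAT) of mice fed a high-fat diet (HFD) with Taeeumjowuitang (TJ) was compared with that of mice fed the HFD with green tea extract (GT). The comparison took 6 of the 12 RNA-seq libraries of the series, 3 TJ and 3 GT, and every gene whose mean over these 6 reached 1 FPKM, which left 12187 of the 23474 genes listed. FPKM is the number of fragments scaled to transcript length and library depth. No library of the normal diet (ND) or of the HFD alone entered the fit. The animals of both groups were male C57BL/6J mice, housed singly, which received their diet for 12 weeks from 5 weeks of age and were 17 weeks old when sampled. The TJ group ate the HFD with 3% (w/w) TJ, a traditional Korean mixture of plant water extracts that includes Ephedra herb, and the GT group ate the HFD with 0.25% (w/w) of an ethanol extract of green tea. Both groups therefore ate the HFD, and a difference between them sets 1 extract, at its dose, against the other at a different dose.

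White fat stores triglycerides, releases them as fatty acids under adrenergic signals, and secretes hormones such as leptin and adiponectin. On a HFD the epididymal depot is known to gain macrophages around dying fat cells and to accumulate collagen, while its mitochondrial genes tend to be repressed. The fat pad lies against the epididymis and the testis, so both organs can be carried along when it is dissected.

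The spacing of low FPKM values corresponded to roughly 15500000 to 20500000 mapped fragments per library, and FPKM values alone give no counting error. The methods describe each TJ library as the eWAT of a separate mouse, and the labels list the GT libraries as separate samples without saying more, so p-values measure only the spread between these samples. Spearman correlations of libraries, computed across genes that are no independent replicates, were 0.970 to 0.988 within the GT group. The value was 0.987 between TJ 1 and TJ 3, and 0.935 to 0.951 between TJ 2 and the other TJ libraries. TJ 2 was the lowest or the highest TJ library in 86.9% of the genes tested. Any 1 of 3 libraries is at an extreme in most genes even where the 3 are alike, and the shares of TJ 1 and TJ 3 were not computed. For many of the results the value without TJ 2 is given too.

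Between the TJ and GT groups, 18 genes were differentially expressed (DEGs), 0.148% of the genes tested, called where limma's p-value, adjusted by Benjamini-Hochberg, was under 0.05 and the change at least 1.5-fold. Of these, 17 rose in the TJ group (0.139%) and 1 fell (0.00821%), with a median ratio of 8.22 between the group means of the genes that rose. They include 2 subunits of the respiratory chain (Cox5b and Ndufb2), a mitochondrial electron carrier (Fdx1), a regulator of cytokine signalling (Socs1), a transcription factor of capillary endothelium (Tcf15) and several genes whose sequence is shared with a neighbour or a copy. At an unadjusted p of 0.05 the number was 2996 (24.6%), and 46.8% of all genes tested had the higher mean in the TJ group. Every TJ library lay above every GT library in 19.5% of the genes tested and below every GT library in 14.9%. All 18 DEGs showed such a separation, and an exact permutation test of 3 libraries against 3 cannot give a two-sided p-value below 0.1.

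The number of DEGs depended on each library. It was 6 without GT 1, 5 without GT 2, 4 without GT 3 and 6 without TJ 1, whereas it was 81 without TJ 2 and 75 without TJ 3, and all 18 remained DEGs without TJ 2. Rnaset2b, Rnaset2a, 1700047I17Rik2 and B430218F22Rik, 4 of the 18, were DEGs with each library left out in turn. Each of the others lost the call without at least 1 of GT 1, GT 2, GT 3 and TJ 1. Quantile normalization gave 23 DEGs higher and 6 lower in the TJ group. When genes were split by transcript length into 5 groups of equal size, 7 of the 18 were in the group of shortest transcripts and 0 in the longest, and removing the trend of fold change with transcript length gave 14 higher and 9 lower, of which 12 were among the 18. Just outside the threshold lay Adora1, the adenosine A1 receptor, which restrains lipolysis in fat cells. It measured 44.9, 38.3 and 39.98 FPKM in GT 1, 2 and 3 and 20.6, 16.2 and 19.2 FPKM in TJ 1, 2 and 3, a log2 fold change of -1.10 (limma adjusted p = 0.053), and it was a DEG without TJ 2 and in 4 other alternatives. Just inside it lay Cox5b, Ndufb2, Trir, Fdx1 and Tcp11, each at an adjusted p of 0.0463.

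Tcf15 (ENSMUSG00000068079, chr2:152143561-152149097 of GRCm38, plus strand) encodes a basic helix-loop-helix transcription factor known from somites and from the endothelium of capillaries that take up fatty acids. Its level was 4.30, 3.22 and 2.84 FPKM in GT 1, 2 and 3 and 20.2, 39.3 and 22.7 FPKM in TJ 1, 2 and 3. The lowest TJ library was thus several-fold above the highest GT library, and the means were 3.45 ± 0.760 FPKM for GT and 27.4 ± 10.4 FPKM for TJ (SD, n = 3 each). The log2 fold change, on the log2(FPKM + 1) scale used throughout, was 2.63 (SE 0.26, limma adjusted p = 0.0165) and 2.24 with the length trend removed. It was no longer a DEG without GT 1, GT 2 or GT 3. Tcf15 measured 5.79, 3.61 and 5.16 FPKM in the 3 HFD libraries and 3.69, 3.98 and 2.43 FPKM in the 3 ND libraries, all below the TJ group. Of its 100-base stretches 0 occur in another annotated transcript.

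Socs1 (chr16:10782240-10785536, minus strand), an inhibitor of cytokine receptors that signal through JAK kinases, measured 0.840, 0.457 and 0.332 FPKM in the GT libraries and 3.25, 2.97 and 2.80 FPKM in the TJ libraries. The TJ values lay close together and all exceeded the 9 other libraries of the series, whose highest was 2.07 FPKM. The log2 fold change was 1.39 (SE 0.17, limma adjusted p = 0.0442), at a level where the added 1 FPKM understates it, and the call was lost without any GT library or without TJ 1. Ppp1r14a (chr7:29289308-29293801, plus strand) encodes an inhibitor of myosin phosphatase, abundant in smooth muscle. It rose from 1.06, 1.22 and 0.898 FPKM to 8.32, 19.2 and 10.8 FPKM, a log2 fold change of 2.67 (SE 0.27, limma adjusted p = 0.0192). HFD libraries lay between the groups, at 5.54, 4.15 and 2.94 FPKM.

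Cox5b (chr1:36691449-36693681, plus strand) encodes subunit Vb of cytochrome c oxidase, complex IV of the respiratory chain. It measured 59.7, 38.1 and 46 FPKM in the GT libraries and 221, 402 and 182 FPKM in the TJ libraries, with every TJ library at least 3 times as high as any GT library. The log2 fold change was 2.4 (SE 0.31, limma adjusted p = 0.0463) and 1.89 with the length trend removed, when the adjusted p from limma was 0.0723. Ndufb2 (chr6:39592574-39603382, plus strand), an accessory subunit of complex I, measured 17.4, 12.9 and 16.8 FPKM and 51.5, 93.2 and 53.6 FPKM. Its log2 fold change of 1.96 (SE 0.25) stayed at 1.98 with the length trend removed. That value depends on the length assigned to Ndufb2, the median of its annotated transcripts, of which the longest protein-coding one has 4371 nt. Of the 100-base stretches, 8.1% of Cox5b and 2.2% of Ndufb2 occur in other genes. Both subunits lost the call without any GT library or without TJ 1, and with any library left out their log2 fold changes were at least 1.69. Ndufb2 overlaps Braf on the opposite strand and Gm42420 on its own strand. Fdx1 (chr9:51943306-51963556, minus strand), the mitochondrial ferredoxin that passes electrons to cytochrome P450 enzymes, went from 10.6, 9.86 and 12.7 FPKM to 37.9, 57.9 and 30.9 FPKM, a log2 fold change of 1.80 (SE 0.23, limma adjusted p = 0.0463). Its HFD libraries, at 13.2, 13.7 and 13.7 FPKM, lay near the GT group.

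The largest log2 fold change among the DEGs was that of Scand1 (chr2:156311847-156312704, minus strand), which encodes a small protein with a SCAN domain. It was 1.64, 0.190 and 0.552 FPKM in the GT libraries and 27.1, 45 and 19 FPKM in the TJ libraries, so every GT library was under 2 FPKM. It lost the call without GT 3 or TJ 1. Its log2 fold change was 4.12 (SE 0.37, limma adjusted p = 0.00979), it overlaps Cnbd2 on the opposite strand, and 16.8% of its 100-base stretches also occur in Cnbd2. H2afj (chr6:136808244-136810074, plus strand), a histone H2A variant, rose from 5.82, 3.74 and 4.33 FPKM to 28.9, 47.8 and 22.9 FPKM, a log2 fold change of 2.55. Trir (chr8:85026823-85030286, plus strand), a ribonuclease that binds the telomerase RNA, rose from 18.1, 12.8 and 9.26 FPKM to 46.7, 56.4 and 42.9 FPKM, a log2 fold change of 1.83, and Gm1673 (chr5:33983433-33985013, plus strand) from 0.812, 0 and 0.547 FPKM to 6.72, 13.4 and 8.19 FPKM, a log2 fold change of 2.84. Gm1673 and Trir were not DEGs with the length trend removed. ENSMUSG00000097070 and ENSMUSG00000097678, which have no symbol in the annotation used here, rose by 2.26 and 1.88 on the log2 scale.

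Rnaset2b (chr17:6970634-7011299, plus strand) and Rnaset2a (chr17:8115445-8148097, minus strand) are copies of the lysosomal ribonuclease T2 gene on the same chromosome. The 300-base windows around a start of each (250 bases before to 50 after, RefSeq on GRCm38.p6) are printed to show how alike the copies are, with the longest stretch of 153 bases that is identical in both in capitals. They lie at chr17:6978610-6978909 (plus strand) and chr17:8147738-8148037 (minus strand).
Rnaset2b: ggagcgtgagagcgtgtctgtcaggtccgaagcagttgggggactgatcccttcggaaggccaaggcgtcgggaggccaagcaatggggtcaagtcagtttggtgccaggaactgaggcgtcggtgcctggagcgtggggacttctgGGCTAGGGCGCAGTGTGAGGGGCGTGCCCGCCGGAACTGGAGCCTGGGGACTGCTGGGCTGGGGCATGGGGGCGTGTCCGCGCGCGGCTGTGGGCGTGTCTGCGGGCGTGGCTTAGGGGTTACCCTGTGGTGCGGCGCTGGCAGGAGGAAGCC
Rnaset2a: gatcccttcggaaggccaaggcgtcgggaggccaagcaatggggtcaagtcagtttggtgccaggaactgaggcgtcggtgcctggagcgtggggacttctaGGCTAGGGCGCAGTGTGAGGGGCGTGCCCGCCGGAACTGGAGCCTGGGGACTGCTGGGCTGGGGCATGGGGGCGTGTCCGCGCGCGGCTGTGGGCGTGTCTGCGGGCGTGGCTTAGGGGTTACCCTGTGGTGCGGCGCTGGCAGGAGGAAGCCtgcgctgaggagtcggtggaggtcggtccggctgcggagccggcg
Within the transcripts, 72.2% of the 100-base stretches of Rnaset2b and 71.9% of those of Rnaset2a occur elsewhere, mostly in the other copy, so their reads cannot be told apart with certainty. Rnaset2b measured 0.577, 0.538 and 0.398 FPKM in the GT libraries and 9.03, 8.42 and 8.77 FPKM in the TJ libraries, a log2 fold change of 2.70 (SE 0.14, limma adjusted p = 0.000869). Rnaset2a measured 1.35, 1.03 and 0.861 FPKM and 9.10, 10.02 and 7.58 FPKM, a log2 fold change of 2.25 (SE 0.17, limma adjusted p = 0.0035). Both copies were thus low in each GT library and at a near-constant level in each TJ library.

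Further DEGs share sequence with a gene that did not pass the test. All 100-base stretches of 1700047I17Rik2 (chr12:55199592-55217168, plus strand) also occur in Fam177a. It measured 0.793, 0.378 and 0.593 FPKM in the GT libraries and 10.6, 9.25 and 14.5 FPKM in the TJ libraries, a log2 fold change of 2.96 (SE 0.20, limma adjusted p = 0.00327). Fam177a itself measured 11, 10.01 and 10.3 FPKM and 10.9, 8.62 and 12.7 FPKM, a log2 fold change of 0.02. Gm20547 (chr17:34856412-34882042, minus strand) spans Cfb and C2, complement genes on the same strand, and shares 94.9% of its stretches. It was listed at 0.0877, 0 and 0.243 FPKM in the GT libraries and at 7.13, 11.2 and 3.82 FPKM in the TJ libraries, while Cfb had a log2 fold change of -0.46 and C2 of 0.48 (-0.02 without TJ 2). B430218F22Rik (chr13:118386630-118388124, plus strand) overlaps Mrps30 on the opposite strand and shares 36% of its stretches with it. Its log2 fold change was 2.12 and that of Mrps30 was 0.64 (0.37 without TJ 2). The kit is not described as keeping strand, so reads of such pairs could have been counted for either gene.

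Tcp11 (chr17:28066745-28080639, minus strand), a gene of sperm development, was the only DEG lower in the TJ group. It measured 3.32, 2.06 and 2.69 FPKM in the GT libraries and 0.545, 0.212 and 0.137 FPKM in the TJ libraries, a log2 fold change of -1.51 (SE 0.20, limma adjusted p = 0.0463). In ND 1 it reached 2952 FPKM, and 18.4% of its 100-base stretches occur in another annotated gene. It was not a DEG without any GT library or without TJ 1 or TJ 3, and every GT library exceeded every TJ library in summed testis markers too.

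The DEGs did not all set the TJ group apart from the rest of the series. Of the 17 that rose, 11 had an HFD mean nearer to TJ than to GT on the log2 scale, and in 14 every HFD library lay above every GT library. In 16 of the 17, the mean of ND 2 and ND 3 was nearer to GT than to TJ. These genes were picked for GT levels under TJ levels, which by itself favours HFD values above GT. The same shares over all genes tested were not computed, so the counts only describe the 17. For 1700047I17Rik2, the HFD libraries measured 11.3, 12.1 and 12 FPKM and the ND libraries 0.482, 0.0844 and 1.46 FPKM. For Rnaset2b they were 9.96, 8.72 and 9.69 FPKM and 6.98, 0.443 and 0.475 FPKM. Libraries of the TJ and HFD groups were thus alike in 1700047I17Rik2 and Rnaset2b. So were those of GT, ND 2 and ND 3, although the diet of GT was the HFD. A run or date per library is not given in the sources used here, nor is it said which libraries each of the STAR versions named concerns, so a batch or processing step shared by these libraries cannot be told apart from the supplements. The exceptions were Tcf15, Socs1, Gm20547, Gm1673, Ppp1r14a and Fdx1, whose HFD mean was nearer to GT. Only Tcf15, Socs1 and Gm20547 had every TJ library above all 9 libraries of the other groups.

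**Figure D1:**
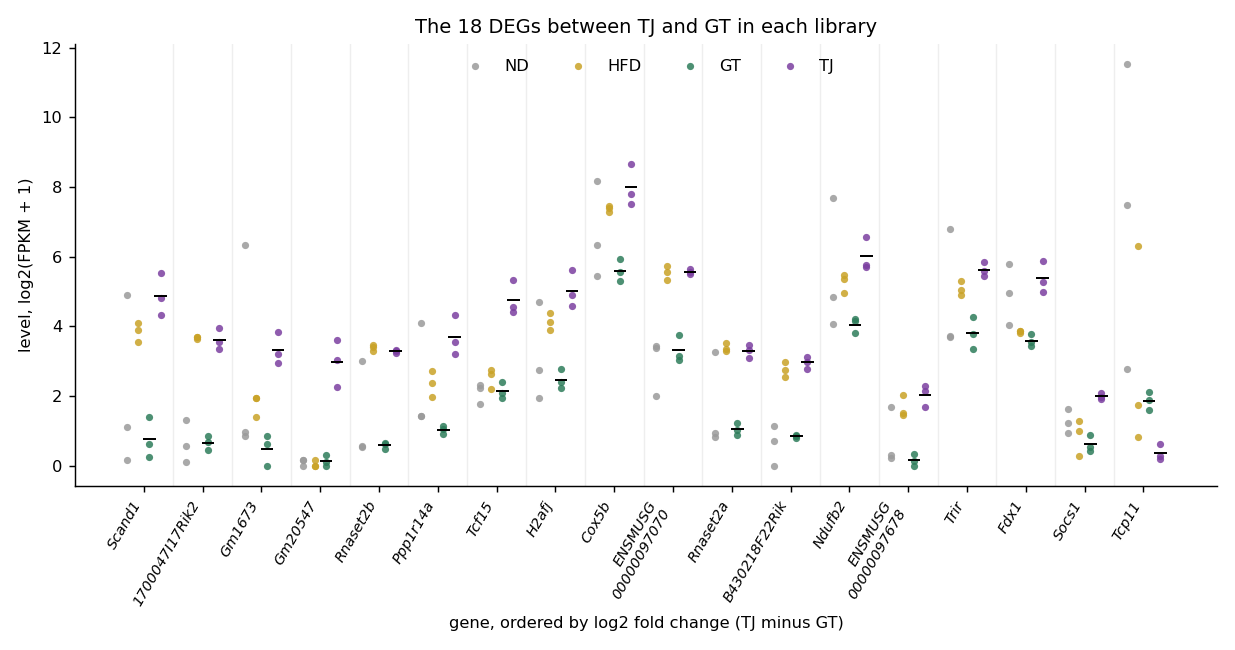
Level of the 18 DEGs, as log2(FPKM + 1), in each of the 12 libraries (ND grey, HFD yellow, GT green, TJ purple; black bars are the means of GT and TJ, and genes run from the largest to the smallest log2 fold change). In every gene the 3 TJ points lie apart from the 3 GT points, and in Scand1, 1700047I17Rik2, Rnaset2b, Rnaset2a and others the HFD points lie by the TJ points.

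Fold change followed transcript length. Over the 12108 genes with a length, the Spearman correlation between the log2 fold change and length was -0.503, given as a description across genes that share the same libraries. Of the 5 length groups, the shortest (up to 1482 nt) had a median log2 fold change of 0.37, and every TJ library lay above every GT library in 44.0% of them. In the longest (from 4302.5 nt) the median was -0.28, and 5.00% were separated upwards and 30.5% downwards. The difference between the median log2 levels of the shortest and longest groups was 0.65 to 0.82 in the GT libraries and 1.30, 1.96 and 1.00 in TJ 1, 2 and 3. Every TJ library therefore held relatively more short-transcript signal than every GT library, and TJ 2 held the most. The correlation was -0.436 without TJ 2, and it was 0.239 with GC content.

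**Figure D2:**
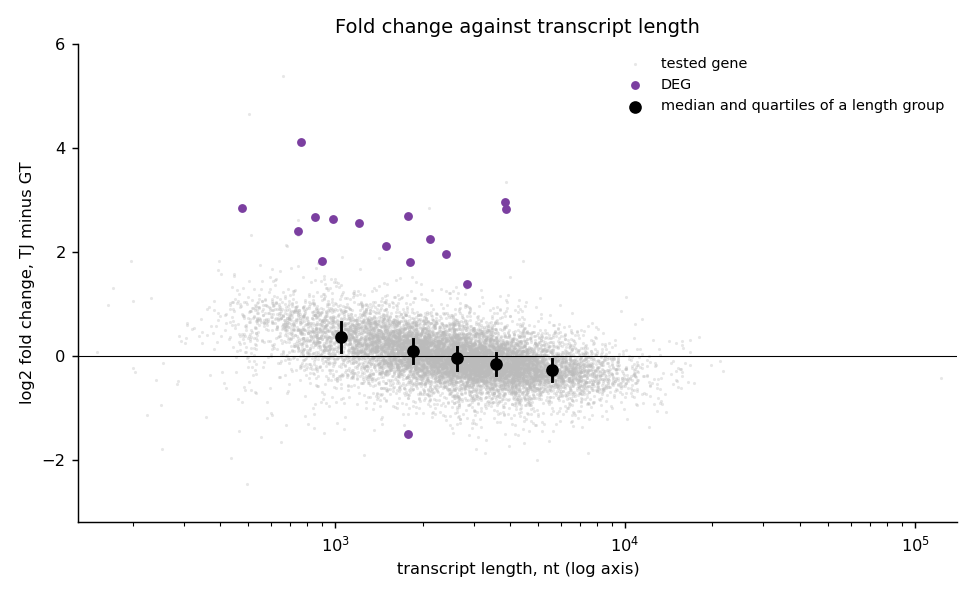
Log2 fold change (TJ minus GT, on the log2(FPKM + 1) scale) of each tested gene against its transcript length in nt on a log axis. Grey points are genes, purple points are DEGs with a length, and black points with bars are the median and quartiles of each of 5 length groups, drawn at its median length: the medians pass from 0.37 in the shortest group to -0.28 in the longest.

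Nuclear genes of the respiratory chain were higher by value in the TJ group, and most of their transcripts are short (median 810 nt for complex I). Complex I takes electrons from NADH, and 28 of its 36 tested nuclear subunits had an unadjusted limma p-value under 0.05 upwards, 77.8%, beside 14.9% of all genes tested. In 30 of them every TJ library lay above every GT library, which is 83.3% against 19.5% of all genes and 44.0% of the shortest length group. Only Ndufb2 was a DEG. The median log2 fold change was 0.75, beside -0.03 over all genes, 0.55 without TJ 2 and 0.27 with the length trend removed. The members ranged from -0.72 for Ndufs1, an iron-sulfur subunit, at 34.9, 40.7 and 37.2 FPKM in GT and 24.6, 17.1 and 26.5 FPKM in TJ, to Ndufb2. Next to Ndufb2 came Ndufa5, with 40.4, 38.8 and 34.2 FPKM and 89.3, 159.5 and 57.9 FPKM, a log2 fold change of 1.29 (limma adjusted p = 0.119). Ndufa2 measured 133, 120.3 and 97 FPKM and 236, 435 and 144 FPKM, with 1.08, 0.66 without TJ 2 and 0.45 with the length trend removed.

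Of the 41 tested subunits of complexes II to V, which end in the ATP synthase, 25 had an unadjusted p-value under 0.05 upwards (61%, beside 14.9% of all genes tested) and 0 downwards, and Cox5b was the only DEG. Their median was 0.62, 0.39 without TJ 2 and 0.18 with the length trend removed. They ranged from -0.15 for Sdha, the flavoprotein of complex II, to 2.4 for Cox5b. The 12 tested genes of mitochondrial DNA had a median of 0.43, which was -0.03 with the length trend removed, and 1 of them (8.33%) was upwards at that p-value, a share under that of all genes tested, while in 4 (33.3%) every TJ library lay above every GT library, beside 19.5% of all. Enzymes of the tricarboxylic acid cycle and of fatty acid beta-oxidation had medians of 0.04 (17 tested) and 0.04 (21 tested), and both turned negative without TJ 2 (-0.05 and -0.11) and with the length trend removed (-0.07 and -0.04).

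Promoters of the respiratory chain are shown because most of its members (35 of 36 in complex I and 38 of 41 in complexes II to V) had the higher mean in the TJ group. The window of Ndufb2 holds the cyclic AMP response element TGACGTCA. Ndufa5 (1 of its 2 RefSeq starts is shown) was chosen among the subunits whose window matches the NRF1 motif, so its match was fixed by that choice. No window is shown for Cox5b, the member with the highest log2 fold change. The windows of Ndufb2 and Ndufa5 lie at chr6:39592315-39592614 (plus strand) and chr6:24527641-24527940 (minus strand) of GRCm38.p6, with the motif in capitals.
Ndufb2: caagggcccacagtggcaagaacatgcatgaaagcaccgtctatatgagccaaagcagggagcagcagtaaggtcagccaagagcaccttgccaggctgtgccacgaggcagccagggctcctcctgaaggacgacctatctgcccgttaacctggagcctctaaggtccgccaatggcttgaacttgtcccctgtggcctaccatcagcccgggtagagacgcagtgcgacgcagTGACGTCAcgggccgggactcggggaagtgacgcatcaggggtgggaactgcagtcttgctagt
Ndufa5: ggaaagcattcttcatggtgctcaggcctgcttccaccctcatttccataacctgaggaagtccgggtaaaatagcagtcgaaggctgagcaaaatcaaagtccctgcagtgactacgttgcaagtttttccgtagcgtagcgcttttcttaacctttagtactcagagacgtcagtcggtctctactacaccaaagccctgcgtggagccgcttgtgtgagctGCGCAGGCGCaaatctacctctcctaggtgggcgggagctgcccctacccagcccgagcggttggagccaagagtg
Searched on both strands, the NRF1 motif occurred in 17 of the 65 respiratory chain and ATP synthase genes with a RefSeq window (26.2%), in 11.5% of all tested genes with a window and in 4.6% of all windows of this length. In the 29 cytosolic ribosomal protein genes with a window the NRF1 share was 6.9% and that of the ETS letters named next 41.4%. NRF1 is known as an activator of nuclear genes for the respiratory chain. In the same order, the ETS letters CCGGAAG occurred in 24.6%, 20.1% and 8.9%, the cyclic AMP response element in 7.7%, 3.4% and 1.8%, and the YY1 letters AAGATGGCG in 10.8%, 3.6% and 1.4%. The ERR letters TCAAGGTCA occurred in 3.1%, 0.3% and 0.4%, and the TATA box TATAAA in 9.2%, 8.6% and 13.6%. No motif searched contains another. Among the 10 DEGs that rose and have a window, Ndufb2 alone held any of the motifs searched.

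Cytosolic ribosomal proteins, also short, had a median of 0.69 over 40 tested genes, with 27 (67.5%) at an unadjusted p-value under 0.05 upwards, beside 14.9% of all genes tested, and 0 downwards. The median was 0.43 without TJ 2, 0.36 with quantile normalization and 0.24 with the length trend removed. Glutathione enzymes, which conjugate foreign compounds and remove peroxides, had a median of 0.50 over 28 tested genes, 0.26 without TJ 2 and 0.19 with the length trend removed. Of these, 12 (42.9%) were upwards and 0 downwards at that p-value. Gpx3, the secreted glutathione peroxidase, had the highest value, 1.13, which was 0.52 without TJ 2. Among 15 cytochrome P450s and related enzymes the median was 0.14. Cyp2e1 measured 240.2, 557 and 795 FPKM in GT and 727, 1605 and 642 FPKM in TJ, and the groups overlapped.

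**Figure D3:**
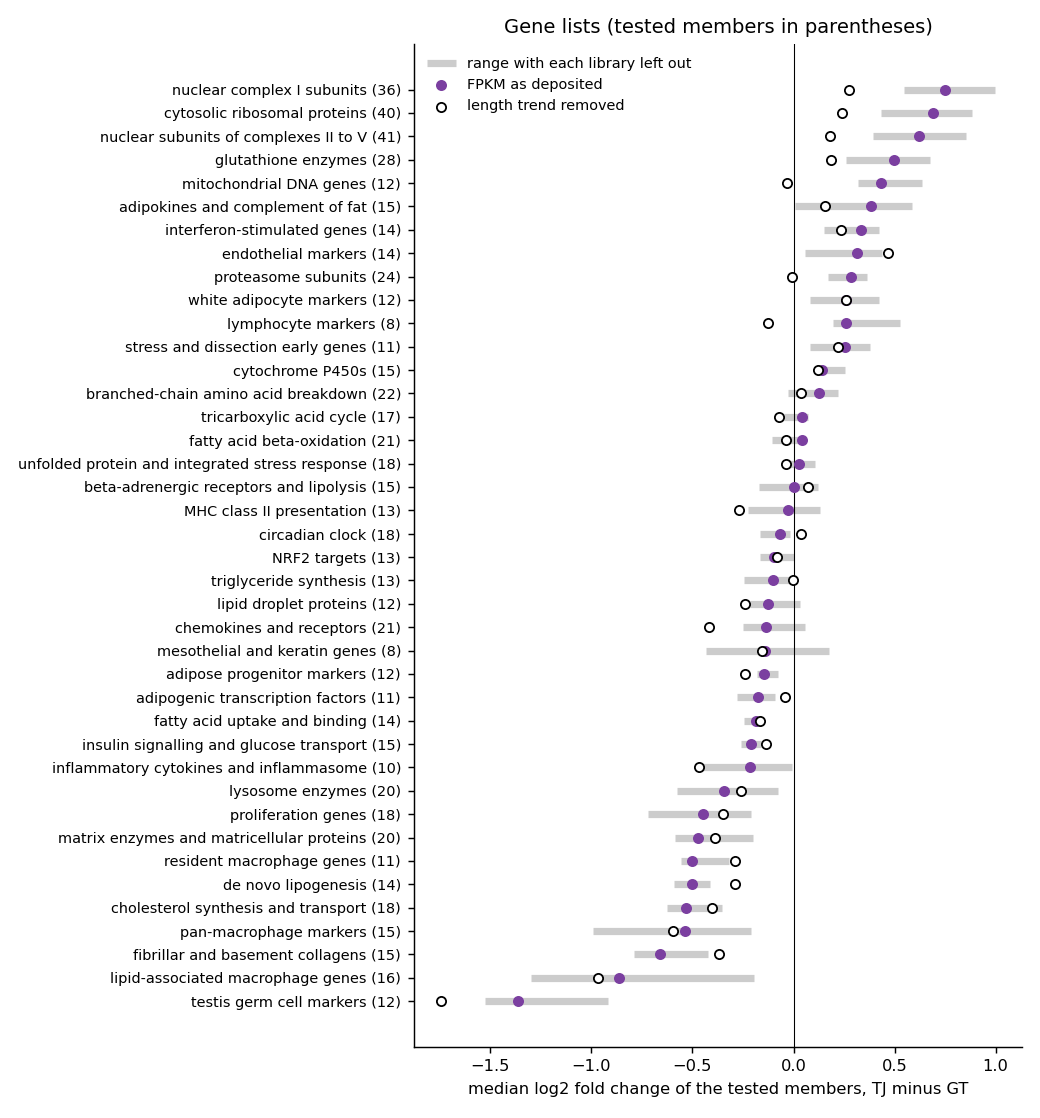
Median log2 fold change (TJ minus GT) of the tested members of each gene list with at least 8 of them. Purple points use the FPKM as deposited, open points have the length trend removed, and grey bars span the medians with each library left out in turn. Respiratory chain and ribosomal lists move towards 0 when the length trend is removed, from 0.75 to 0.27 for complex I, while the lipid-associated macrophage list spans -1.30 to -0.20 across left-out libraries.

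Most genes of de novo lipogenesis (12 of 14) and of cholesterol synthesis and transport (16 of 18) had the lower mean in the TJ group, and 0 passed the adjusted test of limma. In de novo lipogenesis, 7 of 14 tested genes had an unadjusted p-value under 0.05 downwards and 0 upwards, beside 9.66% of all genes tested. In 8 of them (57.1%) every TJ library lay below every GT library, beside 14.9% of all genes tested and 30.5% of the longest length group. The median was -0.50, -0.41 without TJ 2 and -0.29 with the length trend removed. Fasn, the fatty acid synthase, measured 497, 433 and 412 FPKM in GT 1, 2 and 3 and 279.9, 229 and 333 FPKM in TJ 1, 2 and 3. All TJ values lay below all GT values, the log2 fold change was -0.68 (SE 0.19, limma adjusted p = 0.126), and it was -0.31 with the length trend removed. Scd2, a desaturase that introduces a double bond into fatty acids, was the lowest member at -1.63. It measured 183, 139 and 117 FPKM and 71.9, 14.3 and 90.8 FPKM, and the value was -0.83 without TJ 2. Srebf1, which drives these enzymes, measured 110.1, 117 and 179 FPKM and 91.2, 94.1 and 101 FPKM. Mlxipl, the other main activator of the pathway, was the highest member at 0.35.

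In cholesterol synthesis and transport, 9 of 18 tested genes (50%, beside 9.66% of all genes tested) had an unadjusted p-value under 0.05 downwards and 0 upwards. In 10 (55.6%, beside 14.9% of all) every TJ library lay below every GT library. The median was -0.53, -0.35 without TJ 2 and -0.40 with the length trend removed. Lss, lanosterol synthase, was the lowest, at 5.53, 8.23 and 5.65 FPKM in GT and 2.58, 0.731 and 2.20 FPKM in TJ, a log2 fold change of -1.45 (SE 0.29, limma adjusted p = 0.1). Insig1, which holds the sterol sensor in the endoplasmic reticulum, measured 193, 192 and 165 FPKM and 99.1, 33.2 and 124 FPKM, with -1.29 and -0.71 without TJ 2. Values for the sterol regulator Srebf2 were 17.2, 17.6 and 13.3 FPKM and 11.9, 9.33 and 12.2 FPKM. In each of these 3 genes the groups did not overlap. Fdft1 was the highest member, at 0.32.

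In triglyceride synthesis the median of 13 genes was -0.10, -0.25 without GT 1 and 0.00 without TJ 3 or with the length trend removed, with 2 upwards (15.4%) and 4 downwards (30.8%) at an unadjusted p-value under 0.05, beside 14.9% and 9.66% of all genes tested. Gpam, which starts triglyceride assembly, measured 33, 36.6 and 54.5 FPKM in GT and 18.2, 12.9 and 24.3 FPKM in TJ, a log2 fold change of -1.13 (limma adjusted p = 0.105). In fatty acid uptake the median of 14 genes was -0.18. Its extremes were Lpl, the lipase that frees fatty acids from circulating triglycerides, and Gpihbp1, the protein that holds Lpl on the capillary wall. Lpl measured 2419, 3319 and 3908 FPKM and 2068, 1145 and 2403 FPKM, with -0.82 and -0.50 without TJ 2, whereas Gpihbp1 measured 88.8, 84.2 and 112 FPKM and 175, 443 and 212 FPKM, with 1.42. The highest TJ value of Lpl nearly met the lowest GT value, whereas those of Gpihbp1 lay apart.

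Collagens were lower by value in the TJ group. Of 15 tested genes, 9 had an unadjusted p-value under 0.05 downwards and 0 upwards, beside 9.66% downwards of all genes tested. In 8 (53.3%) every TJ library lay below every GT library, beside 30.5% of the longest length group. The median was -0.66, -0.42 without TJ 2 and -0.37 with the length trend removed, and collagen transcripts are long (median 5930 nt). Col3a1 measured 595, 511 and 342 FPKM in GT and 278, 114 and 323 FPKM in TJ, a log2 fold change of -1.11 and -0.65 without TJ 2, and Col1a1 169, 149 and 97.1 FPKM and 89.2, 35 and 83.1 FPKM, with -1.07 (limma adjusted p = 0.158) and -0.64 without TJ 2. Col14a1 had the smallest spread, at 16.8, 19.4 and 17.1 FPKM and 10.6, 9.85 and 12.2 FPKM, with -0.66 (SE 0.14). Col15a1 was the highest member at 0.08. Among 20 matrix enzymes and matricellular proteins the median was -0.47 and -0.20 without TJ 2. At an unadjusted p-value under 0.05, 2 were downwards, 10%, near the 9.66% of all genes tested.

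**Figure D4:**
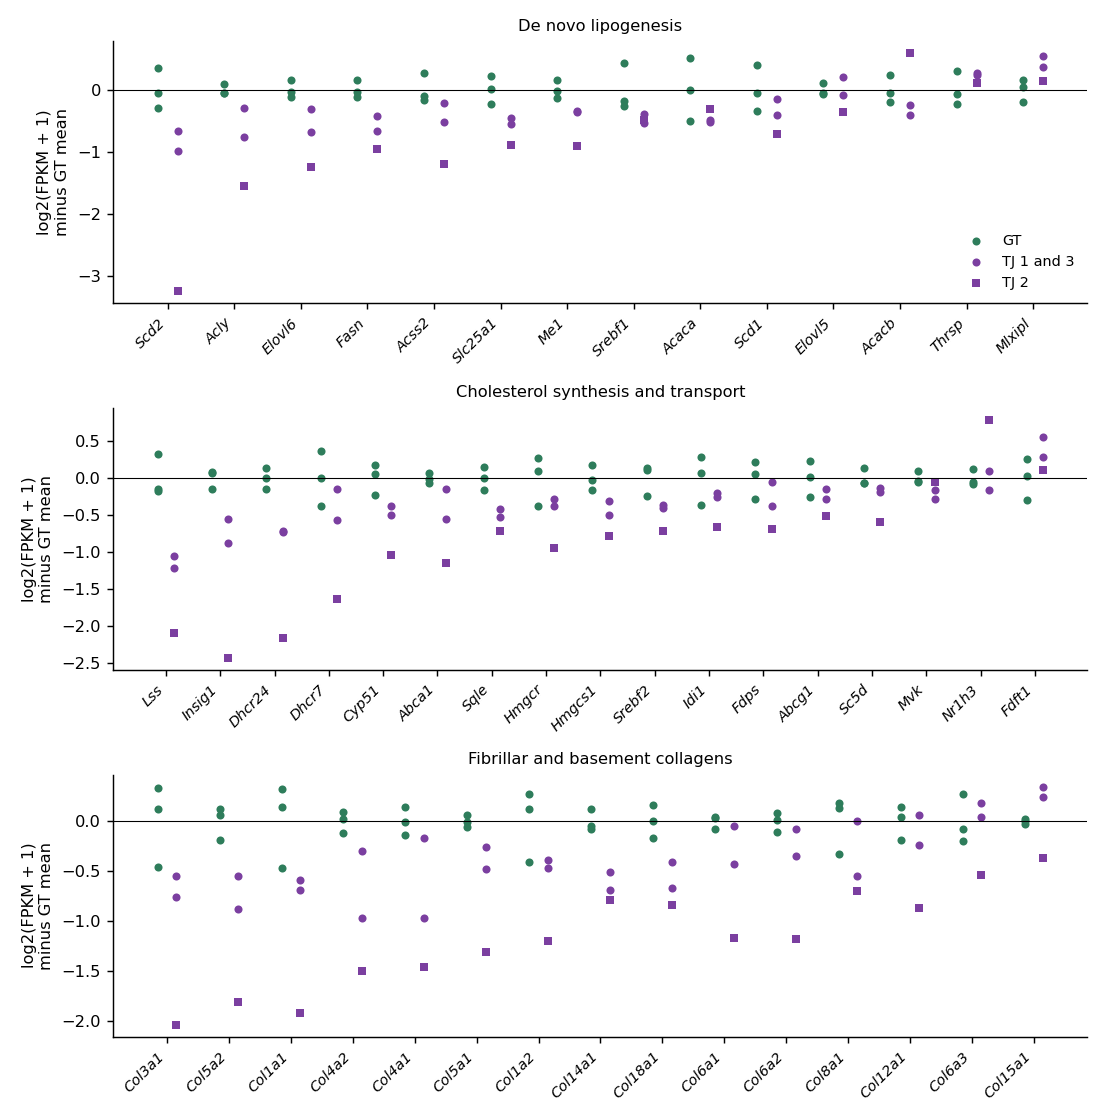
Level of the tested members of 3 lists (1 sterol gene is not shown) in each library, as log2(FPKM + 1) minus the mean of the GT libraries (green circles GT, purple circles TJ 1 and TJ 3, purple squares TJ 2). Most TJ points lie below 0, and TJ 2 is the lowest in most genes, with Scd2, Insig1 and Col3a1 more than 2 units below the GT mean in TJ 2.

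Hormone and receptor genes of the fat cell differed in direction. Leptin (Lep), the satiety hormone whose level follows fat mass, measured 1143, 1117 and 1366 FPKM in GT 1, 2 and 3 and 719, 292 and 825 FPKM in TJ 1, 2 and 3, a log2 fold change of -1.11 (SE 0.38, limma adjusted p = 0.153) and -0.64 without TJ 2. Adiponectin (Adipoq), an insulin-sensitizing hormone, measured 1258, 1741 and 2129 FPKM and 2410, 3738 and 2253 FPKM, with 0.71 (SE 0.30). Resistin (Retn) measured 411, 486 and 598 FPKM and 1037, 2449 and 759 FPKM, with 1.34 and 0.85 without TJ 2. In these 3 genes the groups did not overlap, Lep lay lower and the others higher in TJ, and none passed the adjusted test. Adipsin (Cfd), a complement protease of fat, measured 799.7, 1204 and 1668 FPKM and 2091, 9296 and 1668 FPKM, with 1.44, which was 0.67 without TJ 2.

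Adrb3, the beta-3 adrenergic receptor that starts lipolysis in mouse fat, measured 135, 126 and 245 FPKM in GT and 249, 616 and 274 FPKM in TJ, a log2 fold change of 1.11 (limma adjusted p = 0.161) and 0.70 without TJ 2. GT 3 and TJ 1 nearly met. Among the 15 genes of adrenergic lipolysis the median was 0.00, with 4 upwards (26.7%) and 2 downwards (13.3%), beside 14.9% and 9.66% of all genes tested, and Adcy3, an adenylyl cyclase, was the lowest at -0.60 (-0.38 without TJ 2). Pparg, the master regulator of fat cells, measured 65.2, 66.5 and 98.4 FPKM and 75.7, 118 and 89.1 FPKM, and its groups overlapped. Cebpb, an earlier factor in fat cell development, measured 10.1, 6.15 and 6.44 FPKM and 22.5, 24.9 and 15.9 FPKM, with 1.38 (SE 0.23, limma adjusted p = 0.0734), and Prdm16, a factor of beige fat, 3.88, 4.45 and 4.07 FPKM and 1.39, 1.45 and 2.70 FPKM, with -0.88. Ucp1, the uncoupling protein of brown fat, was at or near 0 in all 6 libraries, and Ucp3 measured 23.9, 32.1 and 41.1 FPKM and 33.6, 44.4 and 32.4 FPKM with overlapping groups. Of 6 tested browning genes, 4 had the higher mean in TJ and 2 the lower, from -0.88 for Prdm16 to 0.90 for Cox8b. Their median was 0.21, and -0.12 with the length trend removed. Brown fat markers (3 tested, median 0.22) summed to 21.8 to 30.4 FPKM in GT and 35.3 to 59.3 FPKM in TJ.

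Pan-macrophage and lipid-associated macrophage genes were lower by value in the TJ group, by an amount that depended on TJ 2 and GT 3. In a bulk sample, fewer cells of a type and less RNA per cell cannot be told apart. The median over 15 pan-macrophage markers was -0.54, with 1 downwards (6.67%, beside 9.66% of all genes tested) at an unadjusted p-value under 0.05, -0.21 without TJ 2 and -0.99 without GT 3. For 16 genes of lipid-associated macrophages it was -0.86, -0.20 without TJ 2 and -1.30 without GT 3, with 1 downwards (6.25%, a share under that of all genes tested). The 11 tested genes of resident macrophages had a median of -0.50, -0.32 without TJ 2 and -0.49 without GT 3, with 4 downwards (36.4%) and 1 upwards (9.09%, beside 14.9% of all genes tested). Their summed level had the opposite order, 1066 to 1118 FPKM in GT and 1253 to 1968 FPKM in TJ. Cd68, a lysosomal protein of macrophages, measured 293, 233 and 106 FPKM in GT and 180.5, 47.9 and 160.1 FPKM in TJ, and Adgre1, the F4/80 antigen, 136, 125 and 57.4 FPKM and 65.6, 11.9 and 68 FPKM. GT 3 was the lowest of its group in both and lay below TJ 1 and TJ 3. The lipid receptor Trem2 measured 238, 169 and 59.2 FPKM and 158, 20 and 110.4 FPKM, and the elastase Mmp12 441, 367 and 139 FPKM and 301, 19.5 and 239 FPKM. Without TJ 2 their log2 fold changes were -0.02 and -0.07, against -0.91 and -1.31 with it. Itgax, Spp1 and the chemokine Ccl2 had -1.09, -1.21 and -0.42, which moved to -0.30, -0.14 and -0.15 without TJ 2, and Gpnmb was the lowest of the lipid-associated list, from -1.80 to -0.48.

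Among 21 chemokines and receptors the median was -0.14, with the opposite sign without TJ 2 (0.06), and the highest was Cxcl9, a chemokine induced by interferon gamma. It measured 13.7, 15.8 and 14.9 FPKM in GT and 23.9, 38 and 27 FPKM in TJ, a log2 fold change of 0.93 (SE 0.19, limma adjusted p = 0.1), and 0.75 without TJ 2. The 14 tested interferon-stimulated genes had a median of 0.34, which was 0.16 without GT 3 and 0.15 without TJ 3, with 4 upwards (28.6%, beside 14.9% of all genes tested) and 0 downwards. Bst2, an antiviral tether, measured 73.6, 63.9 and 50.6 FPKM and 108, 152 and 94.4 FPKM, with 0.89. MHC class II genes had a median of -0.03 over 13 genes, 0.13 without TJ 2 and -0.22 without GT 3, with 0 of them at an unadjusted p-value under 0.05 in limma. The 10 tested inflammatory cytokine and inflammasome genes had a median of -0.21, which ran from -0.49 without GT 3 to -0.01 without TJ 2, and also 0 of them at that p-value.

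Endothelial markers had a median of 0.31 over 14 genes, 0.06 without TJ 3 and 0.44 without GT 3, and 0.47 with the length trend removed, with 4 upwards (28.6%, beside 14.9% of all genes tested) and 0 downwards. These 4 were Gpihbp1, Vegfb, Emcn and Vwf. The list is not of cell markers alone, since it includes the growth factors Vegfa, Vegfb and Angpt1. Vegfb, a growth factor of the vascular family, measured 33, 33.8 and 49.3 FPKM in GT and 67.7, 108 and 61.9 FPKM in TJ, with 0.99 (limma adjusted p = 0.118). Pecam1, a general marker of endothelium, measured 80.1, 81.6 and 93.1 FPKM and 75, 93.9 and 118 FPKM, so the groups overlapped where those of Tcf15 did not. In the stress response list, Eif4ebp3, a repressor of translation, had the highest value. It measured 1.11, 1.32 and 1.80 FPKM and 7.38, 35.8 and 4.46 FPKM, a log2 fold change of 2.32 (SE 0.62, limma adjusted p = 0.124), and 1.5 without TJ 2. The list's median was 0.03 over 18 genes.

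On the lower side, the 9 genes with the largest decreases by value among those whose groups did not overlap were not DEGs. Of these, Sdc3 (a heparan sulfate proteoglycan), Plxna1 (a semaphorin receptor), Tlr8 (a sensor of RNA), Itgad (an integrin of macrophages) and Entpd1 (CD39, which degrades extracellular ATP) had log2 fold changes of -2.01, -1.87, -1.86, -1.73 and -1.62. Without TJ 2 they were -1.46, -1.35, -0.99, -1.12 and -1.35. Plxna1 measured 13, 14.2 and 11.9 FPKM in GT and 3.62, 0.848 and 5.56 FPKM in TJ. Gm10073 was at 79.4, 75 and 72.2 FPKM and 5.21, 6.49 and 55.5 FPKM, so TJ 3 stood apart from its group. The others were Scd2 and the sperm protamine and transition protein genes Prm2 (-1.65) and Tnp2 (-1.57), which were -1.01 and -0.92 without GT 1.

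Markers of the neighbouring organs were present in both groups. Of 20 testis markers, mostly of germ cells but with the Leydig cell gene Insl3, 12 passed the filter on the mean. Such genes can reach it through the group where they are high, and Tcp11 was a DEG. Without the filter the median log2 fold change was -0.98. Their summed level was 158, 71.6 and 79.3 FPKM in GT and 60.7, 47.7 and 48.2 FPKM in TJ, so that every GT library was higher. Tnp1 measured 22.2, 2.87 and 6.29 FPKM and 1.04, 3.22 and 0.258 FPKM. Insl3, of Leydig cells, went the other way, at 0.400, 0.227 and 0 FPKM and 3.42, 5.29 and 0.314 FPKM. Of 18 epididymis markers 3 passed the filter. The list summed to 2.11, 1.15 and 1.39 FPKM in GT and 16.2, 18.4 and 4.53 FPKM in TJ. Crisp1, a sperm-coating protein of the epididymis, measured 0, 0.234 and 0.118 FPKM and 1.13, 11 and 1.68 FPKM. In other groups these lists summed to as much as 113751 FPKM (testis) and 27589 FPKM (epididymis), and the 6 libraries compared here stayed far under that.

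The markers that define the tissue were high in every library. White adipocyte markers summed to 25406, 27478 and 30135 FPKM in GT and 39636, 71649.8 and 32008 FPKM in TJ. TJ 2 was the highest for adipocyte and red blood cell markers and the lowest for the pan-macrophage and lipid-associated macrophage lists. It was also the highest for the endothelial sum, which includes Gpihbp1 and Vegfb and was not computed without them. Red blood cell markers summed to 304 to 400.5 FPKM in GT and 398 to 1169 FPKM in TJ. The part of these cells in the gene lists was not tested.

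**Figure D5:**
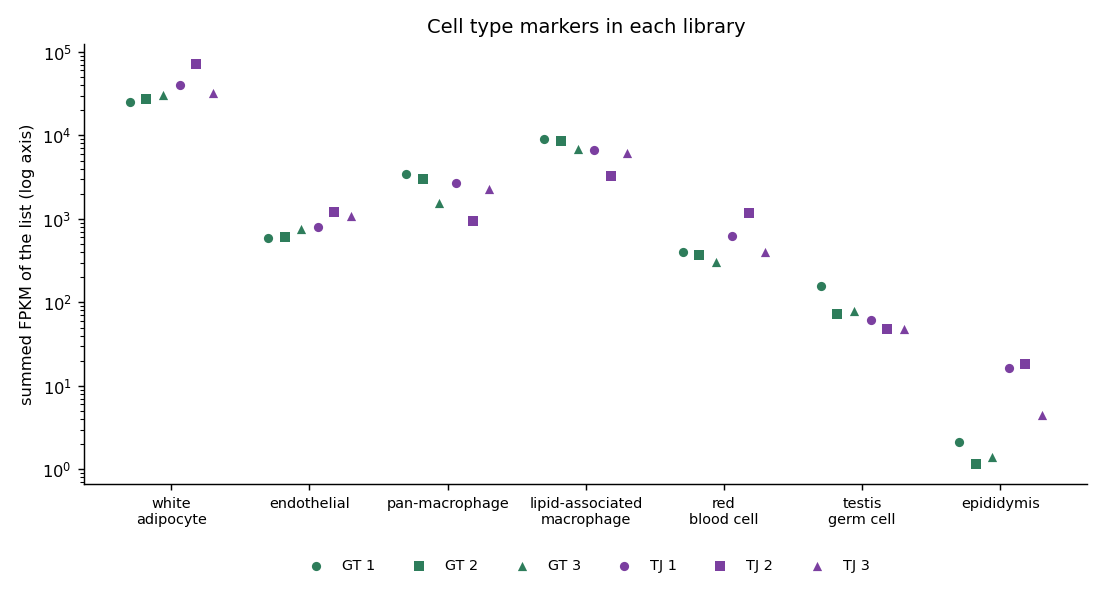
Summed FPKM of 7 lists of cell type markers in each library on a log axis (green GT, purple TJ; circle, square and triangle for libraries 1, 2 and 3). All TJ points exceed all GT points in the endothelial and epididymis sums, the testis sums have the opposite order, and TJ 2 is the lowest library for both macrophage lists. The endothelial sum includes Gpihbp1 and the growth factor Vegfb, both higher in every TJ library, and was not computed without them.

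The 5 most abundant genes that were not DEGs were Fabp4, mt-Atp8, mt-Co1, Car3 and mt-Co2. Fabp4, the fatty acid binding protein of fat cells, measured 17589, 17492 and 17367 FPKM in GT and 28658, 48299 and 21797 FPKM in TJ, a log2 fold change of 0.83 (SE 0.39, limma adjusted p = 0.228) and 0.52 without TJ 2. Carbonic anhydrase 3 (Car3) measured 5526, 8244 and 10713 FPKM and 10916, 12411 and 9313 FPKM, and its groups overlapped. Among the mitochondrial genes the log2 fold change was -0.30 for mt-Atp8 (-0.10 without TJ 2), 0.41 for mt-Co1 and 0.68 for mt-Co2.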

How the data were processed

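Libraries were made from mRNA of eWAT and sequenced on an Illumina platform from 3 samples per group. Per the labels and the study's methods, the authors filtered reads by quality, aligned them with STAR, quantified genes with Cufflinks 2.1.1 against Ensembl release 72 with noncoding regions masked and with multiread and bias correction, and deposited 1 table of FPKM values. The submitters' processing notes name STAR 2.4.0 and CASAVA 1.8.2, while the methods name an earlier STAR version, and neither source says which libraries each version concerns. The methods name a human reference although all identifiers are of mouse genes, so coordinates are those of the annotation used here. The FPKM of 23474 Ensembl identifiers were used as deposited, and 22671 identifiers were named, and given coordinates on GRCm38, with GENCODE M21. Counts behind the FPKM values were not analysed here, so the count test of the study was replaced by limma.

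log2(FPKM + 1) was fitted with limma 3.58.1 in R 4.3.3 (eBayes with trend) on the 6 libraries, for genes whose mean reached 1 FPKM, and p-values were adjusted by Benjamini-Hochberg over all genes tested. The standard error is that of the log2 fold change. Cufflinks values carry no counting error, and the depth given is an estimate from the spacing of low values. Transcript length is the median over basic protein-coding transcripts, and the length trend of fold change was removed with loess (span 0.5). Shared sequence is the percentage of 100-base stretches of a transcript found in transcripts of other genes. The script was tested on simulated data for this comparison with 12187 genes, where it recovered 91 of 100 genes changed 4-fold and 62 of 100 changed 2-fold, called 9 unchanged genes, and called 0 with no gene changed. Simulated noise was independent between genes, without a length trend or a shift shared within a library, and only genes of higher mean level were changed. The real data have such shared shifts, so these counts check the script and do not give its error rates here.

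Named genes were the DEGs with the largest changes each way whose groups did not overlap (lower places filled by genes with p under 0.05), the highest and lowest member of each list and its DEGs, a fixed set of fat, macrophage and collagen genes, and the 5 most abundant genes that were not DEGs. Other genes named, such as Adora1, Gapdh and Fam177a, were chosen after their values were seen. The comparison and the 46 gene lists were chosen with earlier results of these data known.

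Alternatives, also run for the list medians, were pseudocounts of 0.1 and 0.01, no filter or one of 5 FPKM on the mean, median-of-ratios and quantile scaling, all 12 libraries in the fit, a replicate block, array weights, no variance trend, removal of the length or GC trend, other fold limits, and each library left out.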

Additional observations from a re-analysis of the deposited data

How the results depend on the processing

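The number of DEGs between the TJ and GT groups, 18 in all, was 11 with a pseudocount of 0.1 and 8 with 0.01, all higher in the TJ group and 0 lower by limma. It was 6 (5 higher) without the filter, 6 (6 higher and 0 lower) at a mean of at least 5 FPKM, and 4 (4 higher and 0 lower) with all 12 libraries in the fit. Without adjustment these 5 fits gave 2949, 2937, 3918, 2368 and 755 genes at p under 0.05. Quantile normalization gave 29 (23 higher and 6 lower), and lower DEGs numbered 2 with median-of-ratios scaling, 9 with the length trend removed and 3 with the GC trend removed. Array weights gave 1659 (993 higher and 666 lower), after their estimation stopped before converging. With each library left out in turn the total ran from 4 to 81, with 4 to 70 higher and 0 to 14 lower. The correlation of fold change with length lay between -0.436 and -0.530 over left-out libraries. The other alternatives kept the total within 1.5 times 18, and 1700047I17Rik2 was the only DEG called under every alternative that was run.

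Of the 46 list medians, 4 moved by more than the spread of the libraries with quantile normalization, 7 with array weights and 13 with the length trend removed. Quantile normalization took the mitochondrial DNA list from 0.43 to 0.14, which was more than that spread. Other changes stayed within it: quantile normalization took the ribosomal list from 0.69 to 0.36 (library SD 0.39). Array weights took the lipid-associated macrophage list from -0.86 to -0.24 (library SD 1.27).

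The replicate numbers did not pair the samples: deviations from the group means correlated at 0.371, -0.213 and -0.079 for the same-numbered libraries 1, 2 and 3. A replicate block gave 18 DEGs (17 higher, 1 lower), of which 15 were among the 18 without it. With the block and the length trend removed together it gave 14, with 10 higher and 4 lower.

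Of 92 genes followed, 4 that were not DEGs changed sign, and the cause was not tested. C2, at 0.477 in the 6 libraries, was -0.197 with array weights and -0.016 without TJ 2, and Pecam1 was -0.128 with array weights and -0.014 without TJ 3. Col15a1 was -0.098 with quantile normalization, -0.062 without TJ 1 and -0.010 without TJ 3, and Fam177a was -0.004 without GT 2 and -0.096 without TJ 3. Over left-out libraries the highest values were 0.785 for C2, 0.297 for Col15a1, 0.309 for Pecam1 and 0.160 for Fam177a.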

Other observations

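Gapdh, the glycolytic enzyme often used as a reference gene, was lower in the TJ group by value. It measured 155, 146 and 160.1 FPKM in GT 1, 2 and 3 and 67.7, 85.3 and 75.7 FPKM in TJ 1, 2 and 3, a log2 fold change of -1.01 (SE 0.15, limma adjusted p = 0.0574) and -1.27 with the length trend removed. The groups did not overlap, and TJ 2 was not the lowest. Gapdh has many processed copies in the genome, to which reads can also align. Among 13 NRF2 targets the median was -0.10. The highest was Sod1, the cytosolic superoxide dismutase, at 353, 378 and 382 FPKM in GT and 649, 1182 and 531 FPKM in TJ, and the lowest was Hmox1, heme oxygenase 1, at 88.3, 66.2 and 42.1 FPKM and 59.2, 29 and 52.4 FPKM. The groups did not overlap in Sod1 and overlapped in Hmox1.

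Of 18 proliferation genes 0 were higher and 18 lower by mean in the TJ group, with a median of -0.45, -0.21 without TJ 2 and -0.72 without GT 3, and 2 (11.1%) at an unadjusted p-value under 0.05, beside 9.66% of all genes tested that were downwards. Among 18 clock genes the median was -0.07. In insulin signalling and glucose transport it was -0.21 over 15 genes, with 2 downwards (13.3%) and 0 upwards. Irs2, an insulin receptor substrate, was the lowest, at 13.6, 21.6 and 24.6 FPKM in GT and 11.9, 6.63 and 14.4 FPKM in TJ. Lysosome enzymes had a median of -0.34 over 20 genes and -0.08 without TJ 2, -0.58 without GT 3 and -0.20 without GT 1. Proteasome subunits had 0.28 over 24 genes, 0.17 without TJ 2 and -0.01 with the length trend removed, with the immunoproteasome subunit Psmb9 the highest, at 19, 15.8 and 13.2 FPKM and 27.7, 40.3 and 23.6 FPKM.

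Lars2, mitochondrial leucyl-tRNA synthetase, measured 481, 83.7 and 157 FPKM in GT and 3308, 5499 and 371 FPKM in TJ, and the predicted gene Gm10800 23.4, 12.5 and 6.40 FPKM and 362, 5257 and 92.7 FPKM. Both were highest in TJ 2, and neither was a DEG (limma adjusted p = 0.134 and 0.108).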
